A study of Mus musculus with 10 samples.

Results

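The microglial chemokines described here are 9 genes, the CC chemokines Ccl2, Ccl3, Ccl4, Ccl6, Ccl7, Ccl9 and Ccl12 and the CXC chemokines Cxcl2 and Cxcl16. They were taken by gene symbol, and all 9 are among the 24453 gene symbols of the deposited table. The RNA came from microglia, the macrophages that reside in brain tissue, isolated from C57bl6 mouse brains with magnetic beads. Of the 10 libraries, 3 came from untreated mice of 15 months (called aged here) and 3 from untreated mice of 10 weeks (called young). The other experiment, in untreated mice of 3 months, had 2 libraries labelled Rab7 deltaMG, which the series names as null mutants of the late endosomal GTPase Rab7, and 2 labelled Rab7 Control. The labels name no Cre driver, allele or litter for these 4 libraries.

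Chemokines are small secreted proteins that direct the movement of leukocytes along a gradient. They act through G protein-coupled receptors on the target cell, and a receptor often binds several ligands. Ccl3, Ccl6 and Ccl9 bind Ccr1, the monocyte chemoattractants Ccl2, Ccl7 and Ccl12 bind Ccr2, Cxcl2 attracts neutrophils through Cxcr2, and the membrane-anchored Cxcl16 binds Cxcr6. Microglia make several of them at rest or on stimulation, and transcription of many is induced through NF-kB.

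Levels were given in RPM, reads scaled to a common library total, and the low values placed 6098267 to 9907464 reads behind that total in each library. Rab7 itself had 64.2 and 67.5 RPM under the control label and 72.2 and 79.4 RPM under the deltaMG label. As it was not lower in the latter, each direction between these libraries rests on their labels. The noncoding RNA Xist of the inactive X chromosome ranged from 1715 to 1771 RPM among young and from 0.127 to 0.940 RPM among aged libraries, and a sum of 4 Y-linked genes was at most 0.288 RPM in the young and 35.7 to 48.7 RPM in the aged. Age and sex therefore cannot be told apart in the ageing comparison. The libraries labelled control and deltaMG held both kinds of transcript. All 12 microglia markers listed for this purpose were present, summing to 3645 to 6108 RPM per library. In aged replicate 3, which had the lowest microglia sum, 12 neutrophil markers summed to more, at 4323 RPM. No label ties replicates to separate animals, and the p-values therefore rest on the spread between libraries, which may be technical.

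On the GRCm38 annotation of GENCODE M21, 8 of the 9 genes lie on chromosome 11. One cluster holds Ccl2 (82035571 to 82037453), Ccl7 (82045712 to 82047525) and Ccl12 (82101845 to 82103400), all on the plus strand. A second cluster holds Ccl9 (83572919 to 83578636), Ccl6 (83587882 to 83593087) and Ccl3 (83647844 to 83649355) on the minus strand and Ccl4 (83662584 to 83664683) on the plus strand. A gap of 9.2 kb separates Ccl9 from Ccl6, and 13.2 kb separate Ccl3 from Ccl4. Cxcl16 stands apart on the same chromosome (70453983 to 70459984, minus strand), and Cxcl2 is on chromosome 5 (90903871 to 90905938, plus strand). Between longest open reading frames, nucleotide identity was 68.4% for Ccl3 and Ccl4, 64.6% for Ccl6 and Ccl9 and 63.5% for Ccl7 and Ccl12. The longest run shared with another chemokine transcript among 33 compared was 13 to 25 bases for 8 of the members. For Cxcl2 it was 110 bases, shared with Cxcl3, so reads of these genes may have been split or dropped in counting. Cxcl3 was listed at no more than 0.313 RPM.

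The sequence before the transcription start was in RefSeq's table (GRCm38.p6) for 5 of the 9 members. It is shown for Cxcl2, which had the largest fitted rise in aged libraries, and for the neighbours Ccl6 and Ccl9, of which Ccl6 rose and Ccl9 was not called. Capitals mark matches, on either strand, to the NF-kB consensus, to the AP-1 motif TGANTCA, to the TATA motif TATAAA, to the C/EBP motif TTGCNNAA and to the ETS motif GAGGAA. The sequence for Cxcl2 (chr5:90903649-90903870, plus strand) has 222 bases, since 28 more before the RefSeq start are transcribed according to GENCODE. Those for Ccl6 (chr11:83593088-83593337) and Ccl9 (chr11:83578637-83578886) have 250 bases and are written on the minus strand, 5′ to 3′.
Cxcl2: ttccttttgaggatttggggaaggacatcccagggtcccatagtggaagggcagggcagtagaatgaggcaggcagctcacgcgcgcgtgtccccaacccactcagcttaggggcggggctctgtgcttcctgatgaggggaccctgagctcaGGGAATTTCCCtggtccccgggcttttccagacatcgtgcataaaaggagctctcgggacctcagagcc
Ccl6: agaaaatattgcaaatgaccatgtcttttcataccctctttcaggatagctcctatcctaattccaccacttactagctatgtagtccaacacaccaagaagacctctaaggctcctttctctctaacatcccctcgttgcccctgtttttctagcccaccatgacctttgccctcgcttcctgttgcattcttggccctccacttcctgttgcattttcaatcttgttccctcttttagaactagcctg
Ccl9: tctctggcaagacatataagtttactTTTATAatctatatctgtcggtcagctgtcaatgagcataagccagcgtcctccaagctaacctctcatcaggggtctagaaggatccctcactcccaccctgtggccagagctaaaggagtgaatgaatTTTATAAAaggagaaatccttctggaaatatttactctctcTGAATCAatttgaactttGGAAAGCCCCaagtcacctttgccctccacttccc

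In Cxcl2 the only capitals are a pair of overlapping NF-kB matches, on opposite strands, from 69 to 59 bases before the GENCODE start. An NF-kB match was found in 6.4% of all distinct RefSeq promoters over a window of this length. The Ccl6 window holds no match to any of the 5 motifs. Ccl9, whose transcript was not called in either comparison, has an NF-kB match at 35 to 26 bases, an AP-1 match at 53 to 47 bases and 3 TATA matches, 2 of which overlap. Over 250 bases, NF-kB matches were in 7.3%, AP-1 in 6.7%, TATA in 12.3%, C/EBP in 9.6% and ETS in 23.4% of promoters. The windows of Ccl3 and Ccl12 hold 1 ETS match each, and Ccl12 also a TATA match 31 to 26 bases before its start. A match is a description of letters, and binding was not measured.

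Per kilobase of annotated exon, which allows levels to be compared between genes, Ccl3 was the highest of the 9 in every group, with a mean of 57.0 RPM per kb in young and 102.8 in aged libraries. Ccl4 and Ccl12 came next, at 14.1 and 10.6 in young and 19.6 and 20.9 in aged. The other members were lower, and Ccl7 was the lowest at 0.06 and 0.44 RPM per kb. Summed in RPM, the 9 genes came to 95.8 to 123 in young, 151 to 207 in aged, 130 and 156 in libraries labelled control and 134 and 142 in those labelled deltaMG. The plot of chemokine levels by library shows the values for each gene.

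**Figure D1:**
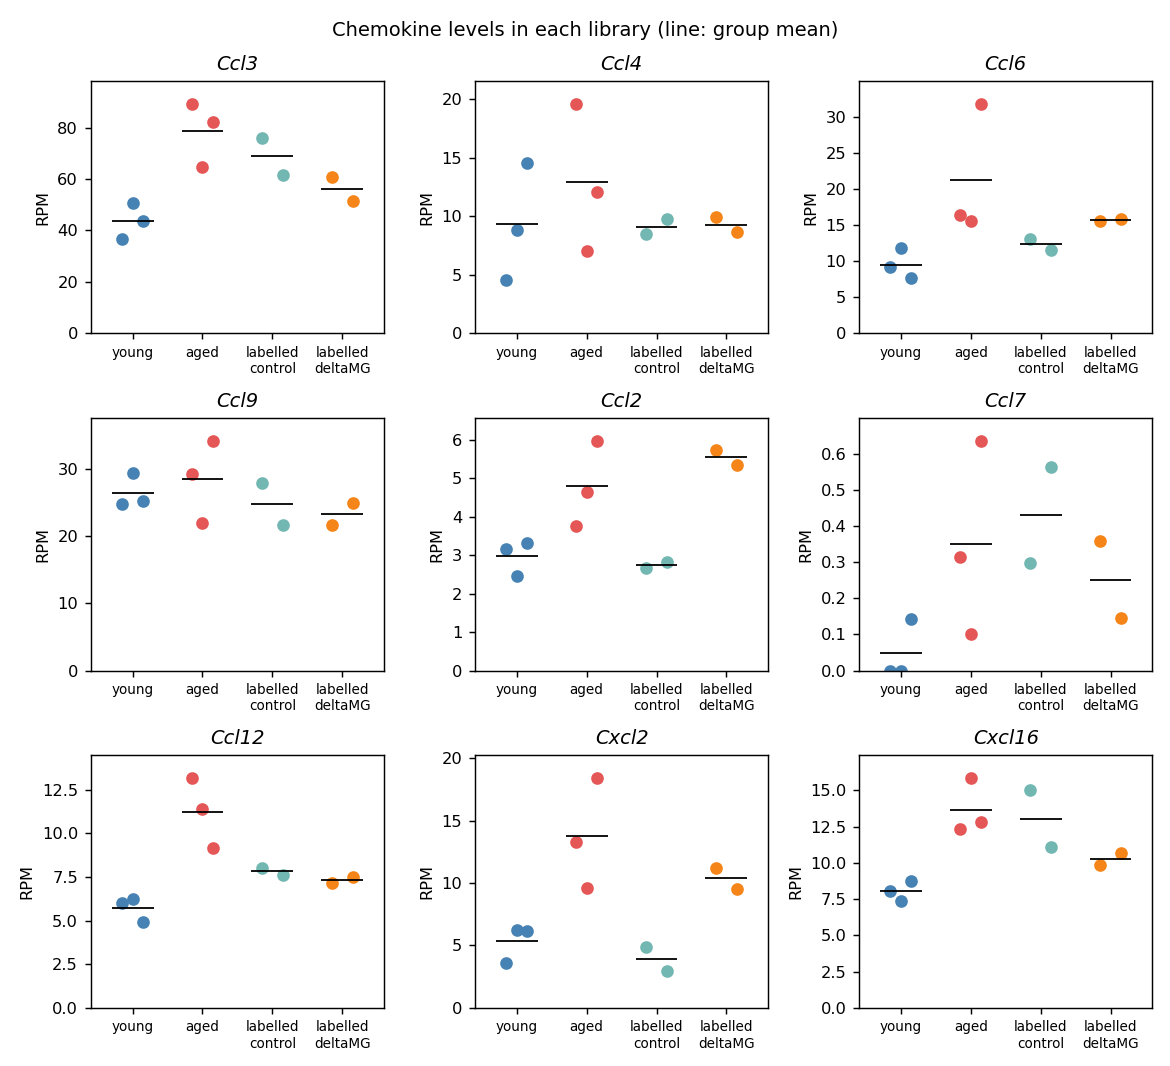
Level of each of the 9 chemokines in RPM (vertical axes from 0, each with its own range) in the 3 young, 3 aged, 2 labelled control and 2 labelled deltaMG libraries. Points are libraries and lines are group means. The aged points lie above all young points for 6 genes, namely Ccl2, Ccl3, Ccl6, Ccl12, Cxcl2 and Cxcl16.

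Of the 9 chemokines, 7 reached the minimum of 10 RPM in at least 2 of 10 libraries and were tested, and 5 of these 7 rose in aged against young libraries, namely Ccl3, Ccl6, Ccl12, Cxcl2 and Cxcl16. None fell. Over all 4151 tested genes, 6.14% were called by limma at an adjusted p under 0.05, the threshold for a call throughout, with 3.16% higher and 2.99% lower. All 7 had a log2 fold change above 0, as did 42.8% of tested genes, and their median was 0.84, against -0.05 over all tested genes. In 6 of the 9 chemokines, the 5 called and Ccl2, every aged library was above every young one. Among the 7 tested chemokines this held for 5. Ranges did not overlap in 23.9% of all tested genes, with the aged libraries higher in 8.41%. Ccl12 reached the minimum in 2 aged libraries and nowhere else, so its place among the tested genes depended on the group in which it was high. Cxcl2 likewise reached it only in aged replicates 1 and 3 and in the library labelled deltaMG replicate 1, the groups in which it was high in both comparisons. With a minimum of 1 RPM, 10800 genes were tested, the same 5 chemokines were called, and 3.44% of genes were called, with 2.34% higher.

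Between libraries labelled deltaMG and control none of the 7 tested chemokines was called by limma, where 3.78% of all tested genes were called, 1.2% higher and 2.58% lower. At an unadjusted p under 0.05 there was 1, Cxcl2, against 18.8% of all tested genes. Their median log2 fold change was -0.08, against -0.02 over all tested genes. The ranges did not overlap for 6 of the 9 chemokines. Under the deltaMG label Ccl2, Ccl6 and Cxcl2 were higher and Ccl3, Ccl12 and Cxcl16 lower. Among the 7 tested, 2 were higher and 3 lower without overlap, while this held for 25.2% (higher) and 26.6% (lower) of all tested genes. The plot of fold changes sets both comparisons side by side. They share no libraries, and the fit is on log2(RPM + 1), which understates the fold of low genes.

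**Figure D2:**
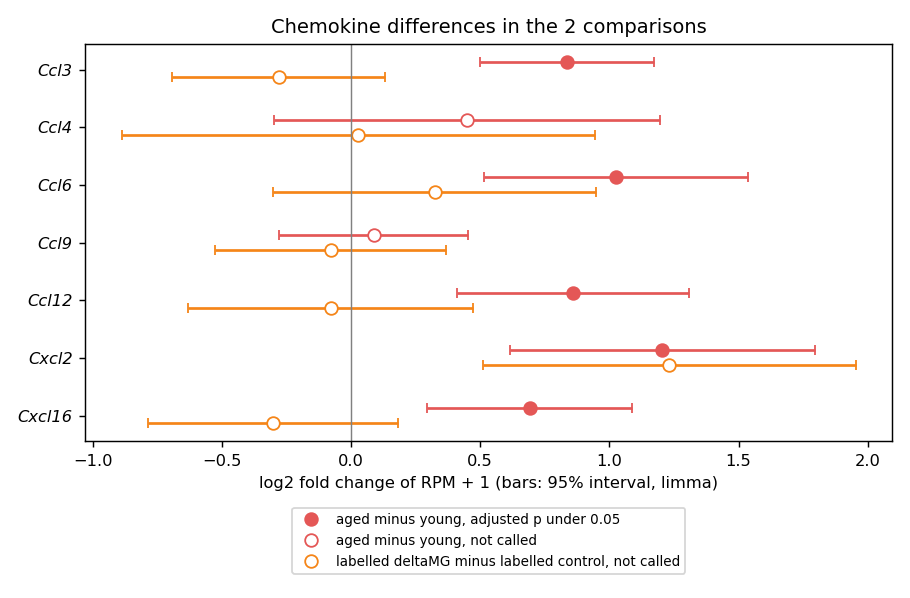
Log2 fold change of RPM + 1 with its 95% interval from limma (horizontal axis) for the 7 tested chemokines. Filled points passed the adjusted p threshold of 0.05 and open points did not. Ccl3 lies at 0.84 for aged minus young and at -0.28 for labelled deltaMG minus labelled control, while Cxcl2 lies at 1.21 and 1.23.

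Ccl3, also called MIP-1 alpha, was measured at 36.6, 50.8 and 43.6 RPM in young replicates 1, 2 and 3 and at 89.1, 64.8 and 82.3 RPM in aged replicates 1, 2 and 3. Every aged library was above every young one. The means were 43.7 RPM ± 7.14 and 78.7 RPM ± 12.6 (SD, n = 3 each), a ratio of 1.80. The fitted rise in RPM + 1 was 1.79-fold, a log2 fold change of 0.84 (SE 0.16, limma adjusted p = 0.0075.) It was called with each of the 10 libraries left out, with adjusted p from 0.002 to 0.0473. The replicate libraries labelled control were at 76.1 and 61.5 RPM and those labelled deltaMG at 60.9 and 51.6 RPM. These ranges did not overlap, as was the case for 51.8% of all tested genes, and the log2 fold change was -0.28 (95% interval -0.69 to 0.13, limma adjusted p = 0.482).

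The ageing and deltaMG differences of Ccl3 were themselves compared, since the first was a rise and the second was not called. The difference between them was 1.12 on the log2 scale (SE 0.25, limma adjusted p = 0.0174), where 4.79% of all tested genes were called. Of the 7 tested chemokines Ccl3 alone passed this test. The call was lost without young replicate 1 (adjusted p = 0.0507), without the library labelled control replicate 1 (0.138) and without that labelled deltaMG replicate 2 (0.107). In the order of group means, aged and labelled control overlapped, while labelled control lay above labelled deltaMG, and labelled deltaMG above young, without overlap. Such an order runs across separate experiments, which differ in the age of the mice and in sex-linked transcripts, and it was not tested.

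Ccl4, also called MIP-1 beta, is the neighbour of Ccl3 in the genome and, like it, attracts monocytes and T cells. Among young and among aged libraries it varied more than any other tested member, at 4.57, 8.86 and 14.5 RPM in young replicates 1 to 3 and 19.6, 7.07 and 12.1 RPM in aged replicates 1 to 3. The ranges overlapped. The log2 fold change was 0.45 (95% interval -0.30 to 1.20, limma adjusted p = 0.517), an interval that still holds the value of Ccl3. Libraries labelled control were at 8.47 and 9.73 RPM and those labelled deltaMG at 9.92 and 8.68 RPM, with a log2 fold change of 0.03 (95% interval -0.89 to 0.94, limma adjusted p = 0.982). Its sign in this comparison is not fixed, since it was -0.06 without the library labelled control replicate 1. The ratio of Ccl3 to Ccl4 within a library ran from 3.00 to 9.17 and did not separate aged from young libraries (exact permutation p = 0.6, two-sided, smallest possible 0.1). It was 8.98 and 6.32 in libraries labelled control and 6.15 and 5.95 in those labelled deltaMG, without overlap (exact permutation p = 0.333, the smallest possible).

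Ccl6, a myeloid chemokine found in rodents, was at 9.14, 11.8 and 7.63 RPM in young replicates 1 to 3 and at 16.4, 15.5 and 31.7 RPM in aged replicates 1 to 3. All aged libraries were above the young, and aged replicate 3 stood well above the others. The means were 9.53 RPM ± 2.12 and 21.2 RPM ± 9.10 (SD, n = 3 each), a ratio of 2.23. The fitted rise in RPM + 1 was 2.04-fold, a log2 fold change of 1.03 (SE 0.24, limma adjusted p = 0.0221.) Without aged replicate 3 the log2 fold change was 0.71 and the call was lost (adjusted p = 0.0657). It was also lost without young replicate 1 (0.0826) and young replicate 3 (0.0799). Libraries labelled control were at 13.1 and 11.6 RPM and those labelled deltaMG at 15.5 and 15.8 RPM, so the latter were both higher. The log2 fold change of 0.32 was not called (95% interval -0.30 to 0.95, limma adjusted p = 0.615).

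Ccl9, also called MIP-1 gamma, lies next to Ccl6 and is likewise a ligand of Ccr1. It was at 24.7, 29.4 and 25.2 RPM in young and at 29.3, 22.0 and 34.2 RPM in aged replicates 1 to 3, with overlapping ranges. Its log2 fold change was 0.09 (95% interval -0.28 to 0.45, limma adjusted p = 0.831), and it turned to -0.05 without aged replicate 3. Libraries labelled control were at 27.9 and 21.7 RPM and those labelled deltaMG at 21.7 and 24.9 RPM, a log2 fold change of -0.08 (95% interval -0.53 to 0.37, limma adjusted p = 0.897). The group means, from 23.3 to 28.5 RPM, overlapped with their neighbours throughout their order.

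The ratio of Ccl6 to Ccl9 within a library does not depend on how libraries were scaled to each other. It was 0.369, 0.402 and 0.303 in young replicates 1 to 3 and 0.561, 0.706 and 0.929 in aged replicates 1 to 3. All aged ratios were above the young, 2.02-fold in geometric mean, and the exact permutation p of 0.1 (two-sided) is the smallest that 3 against 3 libraries can give. The ratios in libraries labelled control were 0.468 and 0.532, and in those labelled deltaMG 0.714 and 0.634. They did not overlap either, with an exact permutation p of 0.333, the smallest that 2 against 2 can give. Neither comparison of this ratio could reach a p under 0.05.

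Ccl2, the monocyte chemoattractant MCP-1, stayed under the minimum in all libraries, at 15 to 48 reads each, and was not tested in the fit over 4151 genes. It was at 3.15, 2.46 and 3.31 RPM in young and 3.76, 4.64 and 5.97 RPM in aged replicates 1 to 3. It was at 2.67 and 2.82 RPM in libraries labelled control and at 5.73 and 5.35 RPM in those labelled deltaMG. Aged libraries were above young, and libraries labelled deltaMG above those labelled control, without overlap. With a minimum of 1 RPM, limma gave a log2 fold change of 0.53 with an adjusted p of 0.266 for ageing and of 0.80 with an adjusted p of 0.215 for the deltaMG labels, so neither was called.

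Ccl12, or MCP-5, is the third Ccr2 ligand of this cluster. It was at 5.99, 6.23 and 4.89 RPM in young and at 13.2, 11.4 and 9.14 RPM in aged replicates 1 to 3, with no overlap. The means were 5.70 RPM ± 0.713 and 11.2 RPM ± 2.01 (SD, n = 3 each), a ratio of 1.97. Fitted on RPM + 1, it rose 1.81-fold, a log2 fold change of 0.86 (SE 0.21, limma adjusted p = 0.0288.) With a minimum of 1 RPM, which all of its values passed, the adjusted p was 0.0209. The call was lost without aged replicate 1 (adjusted p = 0.109) and without young replicates 1 (0.0803), 2 (0.0523) or 3 (0.0864). Libraries labelled control were at 8.02 and 7.61 RPM and those labelled deltaMG at 7.17 and 7.52 RPM, which gave a log2 fold change of -0.08 (95% interval -0.63 to 0.47, limma adjusted p = 0.913). The group means, from high to low, were in the order aged, labelled control, labelled deltaMG, young, with no overlap between neighbours. This order, too, runs across separate experiments and was not tested.

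Ccl7, or MCP-3, was close to the limit of detection. It had 1 read in all over the 3 young libraries, 8 over the 3 aged, 6 over the 2 labelled control and 4 over the 2 labelled deltaMG. Of the young libraries, 2 were at 0. With so few reads, whether Ccl7 differed between groups cannot be told. The ratio of Ccl12 to Ccl2, the better measured Ccr2 ligands of the cluster, was 3.00 and 2.70 in libraries labelled control and 1.25 and 1.41 in those labelled deltaMG (exact permutation p = 0.333, two-sided, the smallest possible). In young and aged libraries these ratios overlapped (exact permutation p = 0.5).

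Cxcl2, or MIP-2, was at 3.62, 6.23 and 6.19 RPM in young and at 13.3, 9.59 and 18.4 RPM in aged replicates 1 to 3. Every aged library was above every young one. The means were 5.35 RPM ± 1.49 and 13.8 RPM ± 4.43 (SD, n = 3 each), a ratio of 2.58. Fitted on RPM + 1, it rose 2.31-fold, a log2 fold change of 1.21 (SE 0.28, limma adjusted p = 0.0206.) The call was lost without aged replicate 1 (adjusted p = 0.0657), aged replicate 3 (0.0789) and young replicate 1 (0.105). Libraries labelled control were at 4.90 and 2.96 RPM and those labelled deltaMG at 11.2 and 9.55 RPM. The deltaMG values were higher without overlap, by 1.23 on the log2 scale with a standard error of 0.34 (95% interval 0.51 to 1.95), but the limma adjusted p was 0.0581.

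That adjusted p for Cxcl2 moved across the threshold with the processing. It was 0.0468 with a minimum of 1 RPM, where 1.69% of genes were called and 0.657% called higher. It was 0.0365 with equal totals, 0.0364 with median-of-ratios rescaling and 0.00609 with the 4 libraries of that experiment alone. Median-of-ratios rescaling and the fit of those 4 libraries also called more of all tested genes than the main fit did, with counts given below. The adjusted p of Cxcl2 stayed above the threshold at 0.0555 with a pseudocount of 0.1, 0.0734 with a pseudocount of 5 and 0.0567 with no mean-dependent prior variance. It was 0.0925 with quantile normalization, 0.124 with the replicate block, 0.147 with voom and 0.461 with no filter. It was 0.0348 without aged replicate 2 and 0.024 without aged replicate 3, and 0.149 to 0.324 when any of the 4 libraries of its own comparison was left out. The difference between the ageing and deltaMG effects was -0.03 (95% interval -0.96 to 0.91, limma adjusted p = 0.986), which turned positive in 8 of the 20 alternatives. In the order of group means, aged and labelled deltaMG overlapped above, and young and labelled control overlapped below. These pairs come from separate experiments, which differ in the age of the mice and in sex-linked transcripts, and they were not tested.

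Cxcl16, a chemokine made as a membrane protein and released by proteolysis, was at 8.03, 7.38 and 8.76 RPM in young and at 12.4, 15.8 and 12.8 RPM in aged replicates 1 to 3. The groups did not overlap. The means were 8.05 RPM ± 0.689 and 13.7 RPM ± 1.90 (SD, n = 3 each), a ratio of 1.70. Fitted on RPM + 1, it rose 1.61-fold, a log2 fold change of 0.69 (SE 0.19, limma adjusted p = 0.0425.) This call was lost whichever of the 10 libraries was left out, with adjusted p from 0.0534 to 0.127. Libraries labelled control were at 15.0 and 11.1 RPM and those labelled deltaMG at 9.89 and 10.7 RPM, a log2 fold change of -0.30 (95% interval -0.79 to 0.18, limma adjusted p = 0.533). The difference between both effects was 0.99 with a limma adjusted p of 0.0673. Exons of Cxcl16 overlap those of Zmynd15 on the opposite strand, which was listed at 0.328 to 1.58 RPM, and no strand setting is given in the sources used here. It was the only member with fractional reads, such as 60.83 in young replicate 3.

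**Figure D3:**
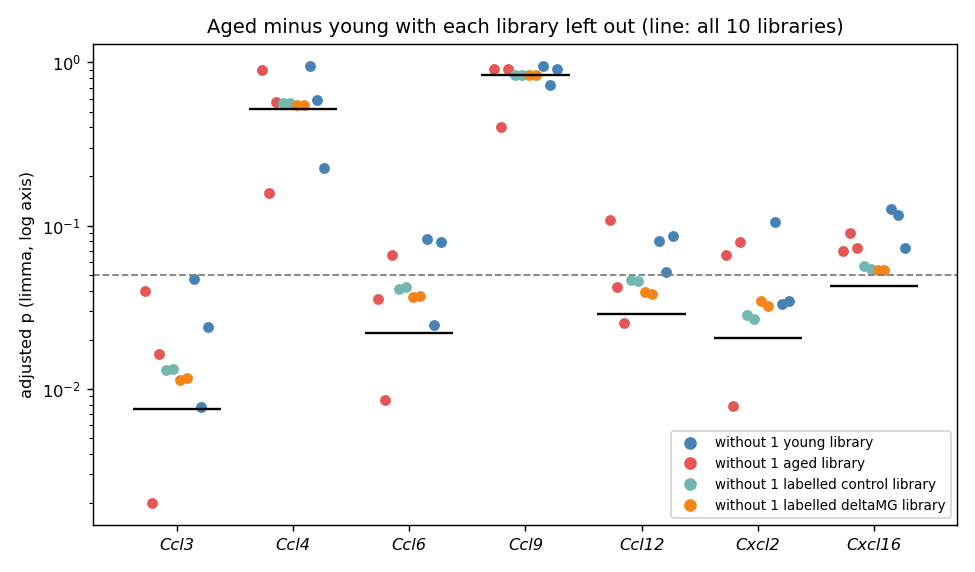
Limma adjusted p for aged minus young (vertical log axis) for the 7 tested chemokines with 1 of the 10 libraries omitted in turn (points, coloured by the group of the library left out) and with all libraries (black lines). The dashed line is 0.05. All 10 points lie below it for Ccl3, 7 for Ccl6, 7 for Cxcl2, 6 for Ccl12 and none for Cxcl16, while Ccl4 and Ccl9 were not called with all libraries.

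Of the receptors for these ligands that are reported here, Ccr2 and Cxcr2 rose in aged libraries and Ccr1 was not called. Over all tested genes, 3.16% were called higher in ageing. Ccr2, carried by inflammatory monocytes, was at 11.2 to 16.9 RPM in young and 27.6 to 73.9 RPM in aged libraries, a fitted 3.12-fold rise in RPM + 1 with a limma adjusted p of 0.00256. Cxcr2, the neutrophil receptor for Cxcl2, was at 20.7 to 70.7 RPM in young and 83.3 to 211 RPM in aged libraries, a fitted 3.04-fold rise with a limma adjusted p of 0.0206. Ccr1 had a log2 fold change of 0.63 (limma adjusted p = 0.243).

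In libraries labelled deltaMG, Cxcr2 rose 4.62-fold (limma adjusted p = 0.0117) and Ccr1 rose 2.83-fold (0.0398). Over all tested genes, 1.2% were called higher in this comparison. Ccr1 reached the minimum of 10 RPM only in aged replicates 1 and 3 and in the 2 libraries labelled deltaMG. Its place among the tested genes therefore depended on the groups in which it was high. Ccr2 was not called under the deltaMG label (log2 fold change 1.13, limma adjusted p = 0.0677). Cxcr6, the receptor of Cxcl16, was not tested and stayed between 1.01 and 2.52 RPM in all libraries. Ccr3, Cxcr1 and the scavenging receptors Ackr1 and Ackr2 were also under the minimum. Ccr2 and Cxcr2 are in the monocyte and neutrophil marker lists as well.

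Of 12 cytokines and receptors that induce chemokines, 8 were tested, and Tlr2, Tnf and Il1b rose in aged libraries, where 3.16% of all tested genes were called higher. Tnf, an inducer of NF-kB, averaged 7.02 RPM ± 0.381 in young and 15.8 RPM ± 1.05 in aged libraries (SD, n = 3 each), a fitted 2.09-fold rise in RPM + 1 with a limma adjusted p of 0.00512. Tnf reached the minimum only in the aged libraries and in the library labelled control replicate 2. Its place among the tested genes therefore depended on the groups in which it was high. In libraries labelled control it was at 8.32 and 11.8 RPM and in those labelled deltaMG at 5.85 and 5.64 RPM, which was not called (log2 fold change -0.70, limma adjusted p = 0.117), and the difference of effects was 1.76 with a limma adjusted p of 0.00334. Il1b, which encodes interleukin-1 beta, rose 2.69-fold in aged (limma adjusted p = 0.0081) and 3.28-fold in labelled deltaMG libraries (0.00875). Of the 8, Il1b alone was called in the deltaMG comparison, where 1.2% of all tested genes were called higher. The median log2 fold change was 0.42 for ageing and 0.24 for the deltaMG labels, against -0.05 and -0.02 over all tested genes.

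None of 10 tested genes of the NF-kB pathway and its feedback was called by limma in either comparison. With 6.14% and 3.78% of all tested genes called, a count of 0 among 10 is near the background. The medians were 0.07 and 0.00, against -0.05 and -0.02 over all tested genes. The lowest adjusted p was 0.0635, for the feedback inhibitor Tnfaip3 in ageing, at a log2 fold change of 0.57. Nfkbiz had 0.56 and an adjusted p of 0.0773. None of the 3 tested genes for the release of Cxcl16 was called either, among them the sheddases Adam10 (log2 fold change -0.28 for ageing and -0.30 for the deltaMG labels, limma adjusted p = 0.323 and 0.436) and Adam17 (-0.09 and -0.26, adjusted p = 0.796 and 0.466).

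Of 25 other chemokine genes, none reached the minimum in 2 libraries, 18 were under 1 RPM in every library and 3 of these, Ccl1, Ccl19 and Cxcl5, were at 0 in all. The 7 that reached 1 RPM in some library, named after their values were seen, were Cxcl10, Cxcl13, Pf4, Cxcl12, Ccl5, Ccl24 and Cxcl14. Cxcl10, an interferon-induced ligand of Cxcr3, was at 1.58 to 3.61 RPM in young and 8.18 to 11.3 RPM in aged libraries, and at 1.74 to 3.81 RPM in the other experiment. Cxcl1, a Cxcr2 ligand like Cxcl2, was listed at 0 in both libraries labelled control and at 0.717 and 0.868 RPM in those labelled deltaMG. A single read stood for 0.119 and 0.145 RPM in the latter, so few reads lie behind these values. The difference was not tested, and ranges did not overlap in 51.8% of tested genes in this comparison.

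How alike the chemokines were over the 10 libraries was described with Pearson's r of log2(RPM + 1). These points share library totals and group differences, so no test was made. Over the 21 pairs of tested chemokines r had a median of 0.50, from 0.03 for Ccl9 and Cxcl16 to 0.81 for Ccl3 and Ccl12. The neighbours Ccl3 and Ccl4 had 0.56 and the neighbours Ccl6 and Ccl9 had 0.48, which was -0.04 without aged replicate 3. Ccl3, Ccl12 and Cxcl16 were alike at 0.76 to 0.81, and Cxcl2 was most like Ccl6 at 0.80.

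**Figure D4:**
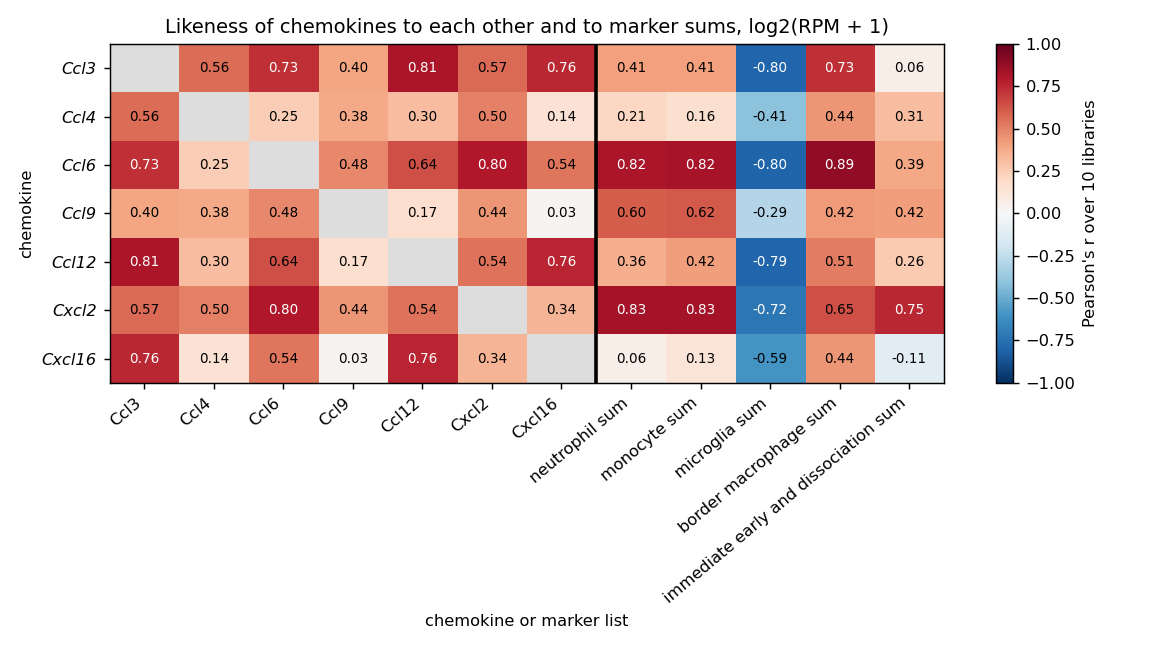
Pearson's r over 10 libraries between each tested chemokine (rows) and the other chemokines or the summed level of 5 marker lists (columns), on log2(RPM + 1). Grey squares are a gene with itself. Ccl6 and Cxcl2 have r of 0.82 and 0.83 with the neutrophil sum, while Cxcl16 has 0.06.

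Outside the list, the tested gene most like Ccl3 was Naalad2 (r = 0.93, Spearman's rho = 0.95), and Ccrl2, an atypical chemoattractant receptor, was the third (0.91, rho = 0.93). For Ccl4 it was Gvin1 (0.91, rho = 0.79), followed by Nfkbia, the inhibitor of NF-kB (0.89, rho = 0.79). For Ccl6 it was F13a1, a coagulation factor gene of monocytes and border macrophages (0.96, rho = 0.93), and for Ccl9 it was Eif5a (0.89, rho = 0.93). Sdc3 was most like Ccl12 (0.91, rho = 0.94), the activity-induced receptor Nr4a1 was most like Cxcl2 (0.97, rho = 0.96), and the noncoding RNA Neat1 was most like Cxcl16 (0.93, rho = 0.92). Each gene was picked for its high r among the 4151 tested genes over 10 libraries, so r was high by selection. Group differences are also a part of these values. After the group means were taken out, r was 0.94 for Cxcl16 with Neat1, 0.85 for Cxcl2 with Nr4a1 and 0.28 for Ccl12 with Sdc3.

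Markers of blood-borne myeloid cells moved along with some of these genes. In bulk RNA, more cells of a type and more RNA per cell cannot be told apart. Neutrophil markers (12 genes, all above 0 in some library) summed to 560 to 1432 RPM in young, 969 to 4323 RPM in aged, 463 and 697 RPM in labelled control and 1191 and 1829 RPM in labelled deltaMG libraries. Monocyte markers (7 genes) summed to 78.0 to 198 RPM in young, 181 to 768 RPM in aged, 59.1 and 94.3 RPM in labelled control and 164 and 219 RPM in labelled deltaMG libraries. Both sums were highest in aged replicate 3, which also had the highest Ccl6 and Cxcl2. In aged replicate 2 both sums were within the range of the young, but 5 of the 7 monocyte markers, namely Ccr2, Vcan, Fn1, Itga4 and Plac8, were above every young library there. The other members of that list, Chil3 and Ly6c2, were within the young range in that library.

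The neutrophil sum had r of 0.83 with Cxcl2 and 0.82 with Ccl6, which were 0.74 and 0.60 without aged replicate 3, and 0.06 with Cxcl16, 0.36 with Ccl12 and 0.41 with Ccl3. The uncalled Ccl9 and Ccl4 had 0.605 and 0.206 with the neutrophil sum, and Ccl9 had 0.262 without aged replicate 3. With the monocyte sum r was 0.833 for Cxcl2, 0.825 for Ccl6 and 0.617 for Ccl9, and at most 0.42 for the rest. Without aged replicate 3 the first values were 0.75, 0.588 and 0.255. With the border macrophage sum r was 0.89 for Ccl6, 0.73 for Ccl3, 0.65 for Cxcl2, 0.51 for Ccl12 and 0.44 for Cxcl16. Without aged replicate 3 these were 0.75, 0.69, 0.42, 0.56 and 0.42. With the microglia sum r was -0.80 for both Ccl3 and Ccl6, -0.79 for Ccl12, -0.72 for Cxcl2 and -0.59 for Cxcl16. Border macrophage markers (6 genes) summed to 26.2 to 28.5 RPM in young and 31.1 to 83.4 RPM in aged libraries, and to 37.9 to 47.2 RPM in the other experiment. Among these 6, aged and young ranges were apart for F13a1 alone, the gene most like Ccl6. F13a1 was at 5.33 to 8.98 RPM in young and 13.5 to 62.5 RPM in aged libraries. Mrc1, the other tested gene of that list, had a log2 fold change of 0.08 for ageing (limma adjusted p = 0.865). The microglia sum was 5516 to 6108 RPM in young and 3645 to 4096 RPM in aged libraries. In ageing, 6 of its 12 genes were called lower and none higher, against 2.99% and 3.16% of all tested genes. The microglia sum was 5094 and 5512 RPM in labelled control and 4658 and 5990 RPM in labelled deltaMG libraries. Between these labels, 1 of the 12 was called higher and 1 lower, against 1.2% and 2.58% of all tested genes. Immediate early and heat shock genes, which dissociation of tissue can induce, summed to 1472 to 1790 RPM in young and 1749 to 1864 RPM in aged libraries, and to 1130 and 1188 RPM in labelled control against 1514 and 1790 RPM in labelled deltaMG libraries. This sum had r of 0.75 with Cxcl2 and 0.06 with Ccl3. Nr4a1, the gene most like Cxcl2, is a member of this list. Lymphocyte and neuron markers summed to at most 5.59 RPM in any library, endothelial markers to 7.75, oligodendrocyte markers to 19.9 and astrocyte markers to 53.4. Most of the astrocyte sum was Slc1a3, at up to 51.4 RPM, while Gfap, Gja1 and Aldh1l1 were under 1 RPM in all libraries. Most of the oligodendrocyte sum was Mbp, at up to 18.2 RPM. The part of these cells, or of dissociation, in the chemokine differences was not tested.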

How the data were processed

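Per the labels' protocols, RNA from bead-isolated microglia was amplified with NuGEN Ovation reagents, and Ion Xpress reagents were used for library construction. GRCm38, mm10 and FastQC appear in the submitters' processing notes; for the aligner, the counter and the scaling, the method is not given in the sources used here. The deposited values are taken as RPM made by the authors, because most low values in each library are whole multiples of 1 step above a constant of 0.0001 in every cell. The listed genes summed to 18.7% to 23.5% of the implied total. Of values up to 500 reads, 94.2% to 94.6% were within 0.05 of a whole read, so whole reads were not taken as recovered and no count model was the main test.

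A gene entered the test if 2 or more of the 10 libraries held 10 RPM or more of it. The test was made on log2(RPM + 1) with limma 3.58.1 in R 4.3.3. The 4 groups shared 1 estimate of the spread, with a mean-dependent prior variance, and Benjamini-Hochberg adjusted p under 0.05 over all tested genes was a call. Genes named were the 9 members, up to 4 tested genes per list and comparison with the smallest p, and the genes most like each member; the text gives some of those the rule selects. Single ratios were tested by exact permutation over libraries. Intervals of fold changes cover the spread between libraries. Members and lists were chosen with earlier results of these data known, so no list is independent evidence. Figures were drawn with matplotlib 3.10.9. The result of 1 listed gene is not reported here.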

Additional observations from a re-analysis of the deposited data

How the results depend on the processing

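Each of 21 differences (7 chemokines in the ageing and deltaMG comparisons and in the difference of effects) was recomputed under 20 or 21 alternatives, 434 values in all. Of these, 371 kept the direction and the side of the threshold, 41 kept the direction and lost the call, 7 gained a call and 15 changed sign, none of them from a called value. The rise of Ccl3 in aged libraries was called in all alternatives but that with no filter (adjusted p = 0.187). The cause of the changes below was not tested, other than that no filter means 24453 genes tested and that leaving out libraries means fewer samples.

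For the chemokines called in ageing, 5 became 0 with no filter, 1 with the replicate block (Ccl3), 1 with voom on estimated reads (Ccl3), 2 with own groups only, and 1 to 4 with 1 library left out. For the deltaMG labels, 0 became 1 (Cxcl2) with a minimum of 1 RPM, equal totals, median-of-ratios rescaling or own groups only, and 0 to 1 with 1 library left out. For the difference of effects, 1 became 0 with no filter, 2 with no mean-dependent prior variance (Ccl3 and Cxcl16), 0 with the replicate block, and 0 to 1 with 1 library left out.

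Over all genes, the 255 calls in ageing became 52 with no filter, 66 with the replicate block, 138 with voom, 121 with own groups only and 96 to 422 with 1 library left out. The 157 calls for the deltaMG labels became 66 with no filter, 69 with the replicate block, 510 with own groups only and 25 to 317 with 1 library left out. The share of higher calls also moved with the scaling, from 131 of 255 to 230 of 347 with equal totals and 229 of 358 with median-of-ratios rescaling in ageing, and from 50 of 157 to 94 of 228 with median-of-ratios rescaling for the deltaMG labels.

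Signs changed for uncalled values near 0. Ccl4 for the deltaMG labels was -0.01 with quantile normalization and ran from -0.062 to 0.118 with 1 library left out. Ccl9 with 1 library left out ran from -0.051 in ageing (without aged replicate 3) to 0.255, from -0.254 to 0.095 for the deltaMG labels and from -0.008 (without control replicate 1) to 0.341 for the difference of effects. The difference of effects of Cxcl2 was 0.052 with a pseudocount of 5, 0.012 with equal totals and 0.201 with quantile normalization, and ran from -0.315 to 0.261 with 1 library left out.

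Same-numbered libraries share only a number. Their deviations from the group means correlated across genes at -0.14 to -0.39 in ageing and at 0.12 in the other experiment. There, with 2 libraries per group, both numbers must give the same value. With the replicate block the adjusted p in ageing was 0.0448 for Ccl3, 0.0609 for Cxcl2, 0.0826 for Ccl6, 0.0947 for Ccl12 and 0.133 for Cxcl16. Depth limits Ccl7, at 0 to 5 reads a library. When 1 library was left in an arm, its spread was taken to be that of the other groups.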
